A study of Homo sapiens with 6 samples.

Results

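Expression of the genes that attach fucose to proteins, and of the Fringe enzymes that build on that fucose, was measured in Panc-1 cells with and without TGFβ. The members were 9 genes taken by name for their biochemical role: POFUT1, POFUT2, LFNG, MFNG, RFNG, FUT4, FUT8, FUT11 and GMDS. They were read by 21 of the 54675 probe sets and are 9 of the 19777 genes that had a probe set of their own. Panc-1 is an established line from 1 human pancreatic adenocarcinoma. In it TGFβ was used to induce epithelial-mesenchymal transition (EMT), the loss of cell-cell contacts and gain of motility by epithelial cells. All cultures were starved of serum for 24 h. The TGFβ group then received 5 ng/mL porcine TGFβ for 48 h according to the labels, while the study's methods give 5 nM, and the untreated group received medium without it. Each group held 3 whole-genome Affymetrix U133 Plus 2.0 arrays from a repeated experiment in a single line, so the tests measure the spread between these repeats and not between tumours.

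Fucose is a deoxy sugar that cells attach to proteins from the activated donor GDP-fucose. GMDS carries out the first step that turns GDP-mannose into this donor. POFUT1 and POFUT2 place fucose directly on serine or threonine, POFUT1 on the epidermal growth factor (EGF)-like repeats of Notch receptors and their ligands, and POFUT2 on thrombospondin type 1 repeats. The 3 Fringe enzymes add N-acetylglucosamine to the fucose on EGF-like repeats, which is known to change how Notch receptors answer Delta and Jagged ligands. FUT8 instead adds core fucose to the innermost sugar of N-glycans, and FUT4 adds fucose near the outer ends of glycans, where it makes Lewis X structures. FUT11 was first classed with the same enzyme family as FUT4 and now carries the RefSeq symbol POFUT4.

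Array medians lay between 5.14 and 5.21 on the log2 scale, and across probe sets arrays of the same group correlated at 0.995 or more, against 0.954 to 0.959 between groups. Of the 4 epithelial markers, KRT8, KRT18 and EPCAM were above the signal limit and KRT19 was below it in both groups. None of 17 measured markers of acinar and islet, immune, endothelial and fibroblast cells reached the limit, a mean signal of 100 or 6.64 on the log2 scale in either group, and the highest group mean among them was 5.72, for CD3E. The 3′ minus 5′ difference of the ACTB control probe sets, a sign of RNA integrity, was 0.55 ± 0.031 in untreated and 0.34 ± 0.060 in TGFβ arrays (log2, SD, n = 3), and that of GAPDH was -0.0096 ± 0.0096 and -0.028 ± 0.023. The part of this difference in the results was not tested.

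With TGFβ, the messages of LFNG and FUT8 fell, those of POFUT2 and FUT4 rose, and no difference passed the test for POFUT1, RFNG, FUT11 or GMDS. MFNG was below the signal limit on all of its probe sets. Thus 8 member genes, on 11 of the 21 probe sets, could be tested, and 4 of the 8 were called by limma at an adjusted p under 0.05. Among all 10115 genes tested, 58.7% were called, 27.7% higher and 31.0% lower, so the share of members called was close to that of genes in general. The values of untreated and TGFβ arrays did not overlap for the same 4 members, against 68.2% of all genes. At the level of probe sets, 5 of the 11 were called and 5 did not overlap, against 55.1% and 65.5% of all probe sets tested. The median log2 fold change (TGFβ minus untreated) was 0.015 over the 8 members and -0.013 over all genes, and the median size of the change without its sign was 0.14 and 0.21. In bulk RNA, fewer cells expressing a gene and less RNA per cell cannot be told apart.

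**Figure D1:**
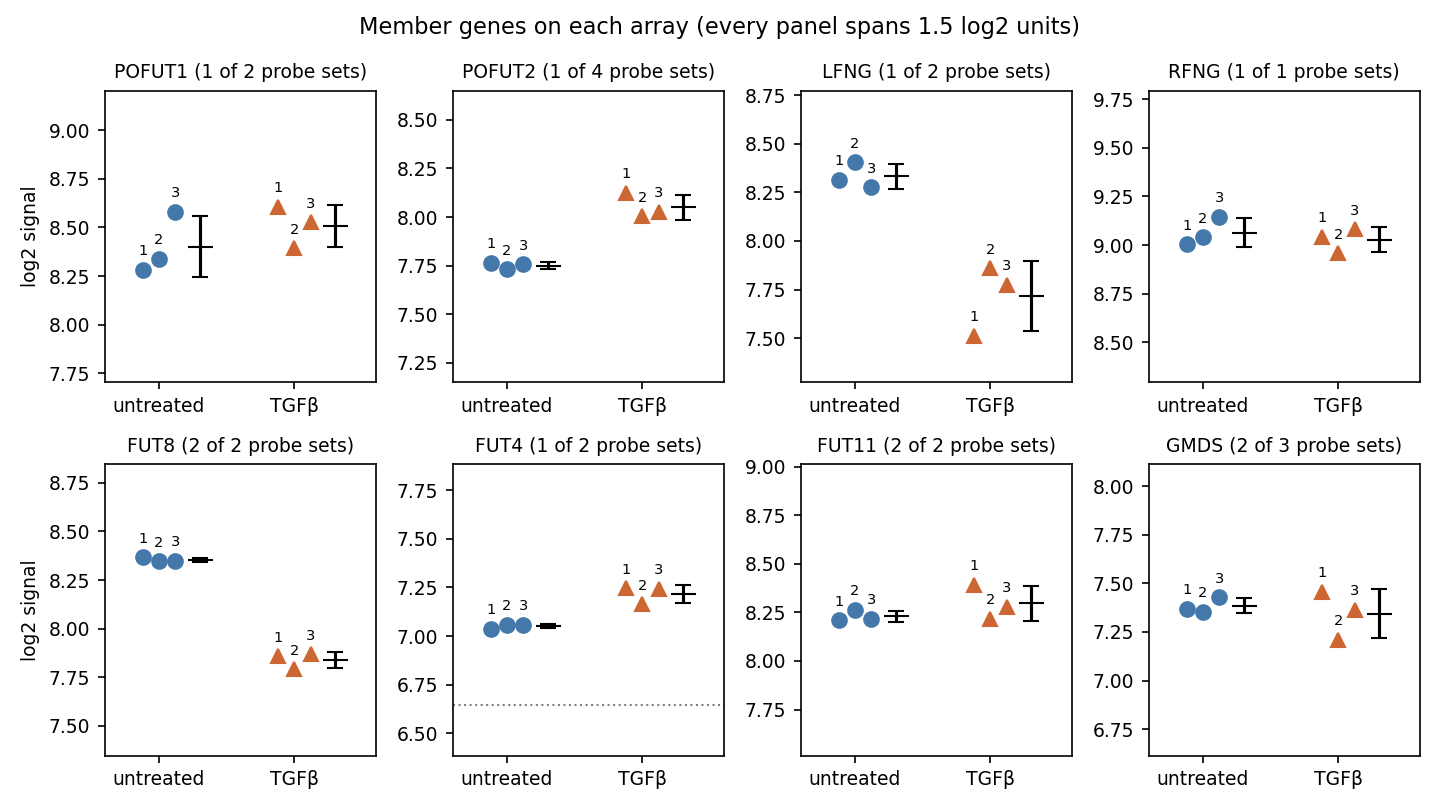
Log2 signal of the 8 tested member genes on each array, untreated (circles) and TGFβ (triangles), with replicate numbers beside the points and the mean and SD of each group in black; every panel spans the same height. The groups separate for POFUT2, LFNG, FUT8 and FUT4 and overlap for POFUT1, RFNG, FUT11 and GMDS.

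Of the enzymes that start O-fucose, POFUT2 rose and POFUT1 did not pass the test. POFUT2 measured 7.76, 7.73 and 7.76 on the untreated arrays and 8.12, 8.003 and 8.03 on the TGFβ arrays (log2). Every TGFβ array was above every untreated array, and the SD of the untreated values was 0.018. The gene rose by 0.30 (SE 0.050, adjusted p = 0.0031), or 1.23-fold, with a 95% interval of 0.18 to 0.42. This value rests on 1 of the 4 POFUT2 probe sets, 209578_s_at, whose suffix marks probes that may match more than 1 transcript or gene. The other 3 were below the limit in both groups, with differences of 0.045, 0.074 and 0.099 and overlapping groups. With all 4 averaged, the log2 fold change was 0.13 and the call was lost (adjusted p = 0.13).

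POFUT1, the enzyme for EGF-like repeats, measured 8.28, 8.34 and 8.58 on the untreated arrays and 8.61, 8.39 and 8.53 on the TGFβ arrays. The groups overlapped, and the untreated spread (SD 0.16) was larger than the difference of 0.11 (SE 0.079, adjusted p = 0.29, 95% interval -0.086 to 0.30). The differences of the same-numbered arrays were 0.32, 0.053 and -0.054, so they did not share a sign. A dim POFUT1 probe set, 210433_at, had 4.64, 4.54 and 4.68 against 4.95, 4.95 and 4.92. It lay below the limit in both groups but its groups did not overlap, and in the fit without a filter it was higher by 0.32 (SE 0.074, adjusted p = 0.019). Averaged with it, POFUT1 was called higher by 0.21 (adjusted p = 0.048).

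The Fringe enzymes differed in whether they were measured at all. LFNG (Lunatic Fringe) fell, RFNG (Radical Fringe) was expressed at similar means in both groups, and MFNG (Manic Fringe) stayed below the limit. LFNG measured 8.32, 8.40 and 8.28 on the untreated arrays and 7.51, 7.86 and 7.77 on the TGFβ arrays. The highest TGFβ value was below the lowest untreated value, and replicate 1 held the lowest TGFβ value. LFNG fell by 0.62 on the log2 scale (SE 0.071, adjusted p = 0.00073), 1.53-fold lower, with a 95% interval of -0.79 to -0.44. This was the largest change among the 8 tested members with the filter, but not without it, where that of FUT8 was larger (-0.51).

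The 2 LFNG probe sets did not move alike. The value above came from 228762_at, whereas 215270_at, below the limit, had 5.18, 5.19 and 5.34 on untreated and 5.47, 5.32 and 5.54 on TGFβ arrays. Its groups overlapped and its difference of 0.20 was opposite in sign (SE 0.074, adjusted p = 0.099, fit without a filter), and all 3 same-numbered differences were positive (0.29, 0.13 and 0.20) where those of 228762_at were all negative (-0.80, -0.54 and -0.50). The difference between the probe sets was not tested. With both averaged, LFNG remained lower by a smaller amount (log2 fold change -0.21, adjusted p = 0.034).

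RFNG measured 9.004, 9.04 and 9.15 on the untreated and 9.04, 8.96 and 9.08 on the TGFβ arrays. The groups overlapped, and the difference of -0.036 (SE 0.052, adjusted p = 0.58) had a 95% interval of -0.16 to 0.091. This interval leaves out a change as large as that of LFNG in either direction. For MFNG, the 3 probe sets had untreated means of 4.79, 4.14 and 5.73 and TGFβ means of 4.76, 4.27 and 5.78. All 3 pairs of groups overlapped, with differences of -0.035, 0.13 and 0.059, and 95% intervals of -0.22 to 0.15, -0.062 to 0.33 and -0.12 to 0.24 in the fit without a filter.

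The starts of LFNG are shown because LFNG fell and is itself known as a Notch target in some tissues, so its start regions were searched for TGGGAA, the core letters bound by the Notch partner RBPJ. They were also searched for CACCTG, an E-box form bound by repressors of the SNAI and ZEB families that act in EMT. Both strands were searched, and the reverse complements are TTCCCA and CAGGTG. Windows ran from 250 bases before to 50 bases after each RefSeq start (GRCh38.p14), and capitals mark the matches. Of all 35116 windows of this length, 24.0% hold the first motif and 20.6% the second. The first LFNG window is chr7:2512279-2512578 (plus strand) and the second is chr7:2517613-2517912 (plus strand).
LFNG start 1: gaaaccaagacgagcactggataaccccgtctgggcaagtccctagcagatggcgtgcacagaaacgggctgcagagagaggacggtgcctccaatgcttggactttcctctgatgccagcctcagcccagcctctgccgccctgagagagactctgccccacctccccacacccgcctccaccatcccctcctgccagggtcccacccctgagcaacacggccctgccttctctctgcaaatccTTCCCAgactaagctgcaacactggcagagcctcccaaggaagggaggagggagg
LFNG start 2: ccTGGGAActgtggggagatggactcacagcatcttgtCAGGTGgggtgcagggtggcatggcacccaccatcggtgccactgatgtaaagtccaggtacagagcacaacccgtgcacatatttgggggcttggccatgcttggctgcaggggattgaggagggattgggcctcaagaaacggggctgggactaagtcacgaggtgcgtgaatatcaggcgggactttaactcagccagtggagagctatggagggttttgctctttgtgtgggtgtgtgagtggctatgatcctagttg
Each LFNG window holds 1 match to TGGGAA, and the second also holds 1 to CACCTG. A match is a run of letters and was not tested as a binding site, and the arrays do not show which start was used. RefSeq listed 12 windows for 8 of the members and none for MFNG. Among the members other than LFNG and FUT8, POFUT2 had 1 match to TGGGAA, and RFNG and FUT11 had 1 match each to CACCTG.

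FUT8, the only human enzyme known to add core fucose to N-glycans, fell on both of its probe sets. The gene measured 8.37, 8.35 and 8.35 on the untreated arrays and 7.86, 7.79 and 7.87 on the TGFβ arrays. All TGFβ arrays were lower, and both groups were tight, with SDs of 0.011 and 0.042. FUT8 fell by 0.51 on the log2 scale (SE 0.049, adjusted p = 0.00034), 1.43-fold lower, with a 95% interval of -0.63 to -0.40. Probe set 1554930_a_at measured 7.85, 7.81 and 7.83 against 7.31, 7.42 and 7.37, and 203988_s_at measured 8.88, 8.88 and 8.87 against 8.41, 8.17 and 8.37. The groups were apart on each, with log2 fold changes of -0.47 (SE 0.059, adjusted p = 0.0012) and -0.56 (SE 0.069, adjusted p = 0.0011). FUT8 was the sole member with 2 called probe sets. It has 3 listed start windows, of which 1, at chr14:65410342-65410641 (plus strand), holds a single match to CACCTG. It is shown for comparison with LFNG, the other member that fell.
FUT8 start 1: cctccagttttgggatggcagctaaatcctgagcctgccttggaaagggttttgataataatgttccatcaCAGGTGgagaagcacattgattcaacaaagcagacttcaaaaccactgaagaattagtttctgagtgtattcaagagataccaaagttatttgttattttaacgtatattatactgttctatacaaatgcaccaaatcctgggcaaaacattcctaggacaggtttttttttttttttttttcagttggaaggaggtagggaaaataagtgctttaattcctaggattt
The other 2 FUT8 windows hold neither motif.

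**Figure D2:**
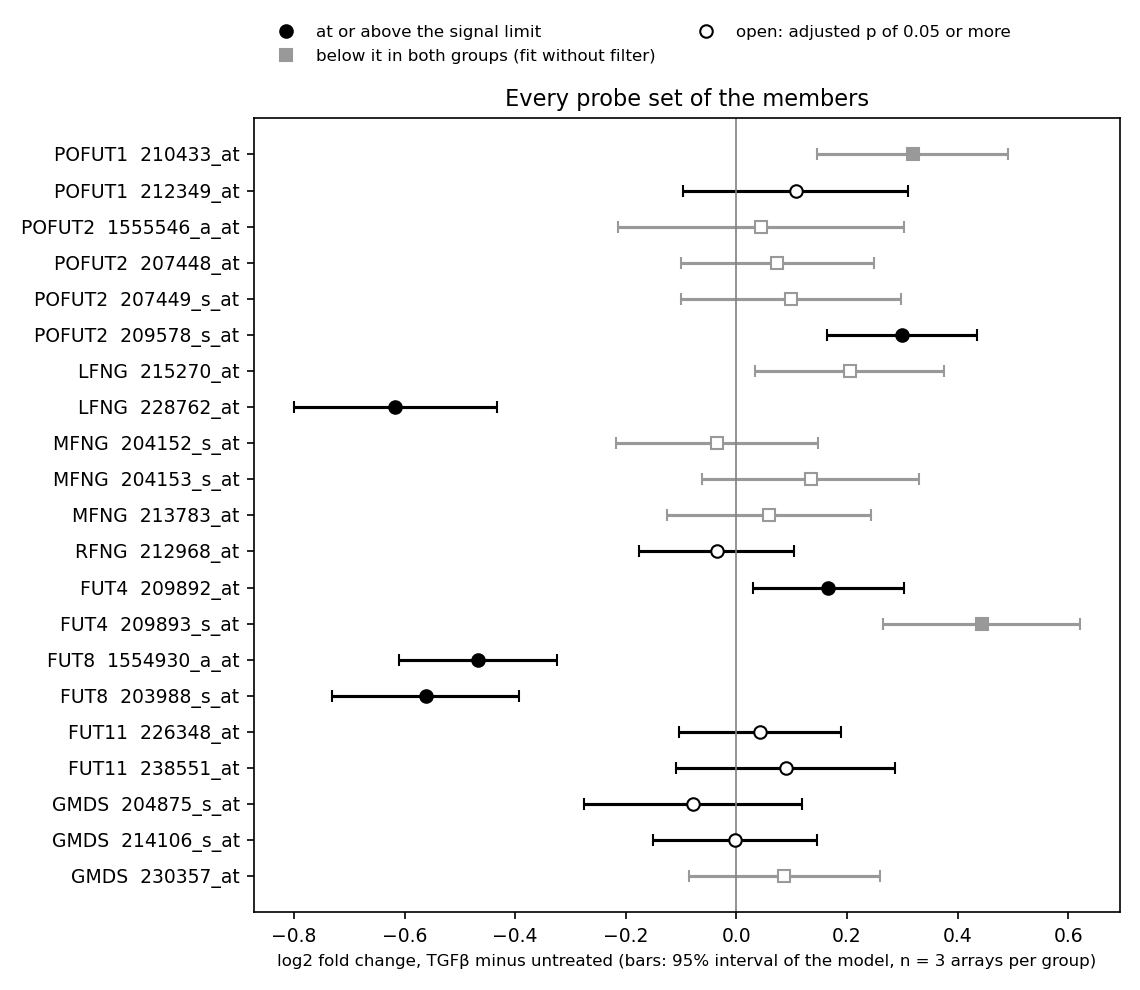
Log2 fold change of each of the 21 member probe sets, TGFβ minus untreated, with the 95% interval of the limma model; black circles are at or above the signal limit, grey squares are below it in both groups and come from the fit without a filter, and open symbols have an adjusted p of 0.05 or more. The 2 FUT8 probe sets lie together at -0.56 and -0.47, while those of LFNG lie at -0.62 and 0.20.

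FUT4, which makes Lewis X on outer branches, rose by a small amount on its brighter probe set. It measured 7.04, 7.06 and 7.06 on the untreated and 7.25, 7.16 and 7.24 on the TGFβ arrays. The groups did not overlap, but the gap between them was small, and the signal was close to the limit of 6.64. The log2 fold change was 0.17 (SE 0.050, adjusted p = 0.031), 1.12-fold, with a 95% interval of 0.043 to 0.29. The second FUT4 probe set, 209893_s_at, was below the limit at 5.95, 5.94 and 5.89 against 6.51, 6.36 and 6.24. Its groups did not overlap either, and it was higher by 0.44 (SE 0.077, adjusted p = 0.0050) in the fit without a filter. With both averaged, FUT4 was higher by 0.30 (adjusted p = 0.0080), a larger change than with the filter. With the filter, the FUT4 gene call was lost with median centring (adjusted p = 0.10) and with an intensity trend and robust prior (adjusted p = 0.075). It was also lost without replicate 2 (adjusted p = 0.085) or replicate 3 (adjusted p = 0.16). Fitted as a probe set, 209892_at had an adjusted p of 0.046 and lost its call in the same alternatives. Its call was further lost without the filter (adjusted p = 0.17), with a constant of 16 added before log2 (0.053) and without replicate 1 (0.072).

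FUT11 measured 8.21, 8.26 and 8.22 on the untreated and 8.39, 8.22 and 8.28 on the TGFβ arrays, and the groups overlapped. Its difference was 0.066 (SE 0.060, adjusted p = 0.38, 95% interval -0.081 to 0.21), with 0.042 and 0.089 on its 2 probe sets. On 238551_at the difference of replicate 1 was 0.30, against -0.042 and 0.0056 for the other replicates.

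GMDS, at the head of donor synthesis, measured 7.37, 7.36 and 7.43 on the untreated and 7.46, 7.21 and 7.36 on the TGFβ arrays. The TGFβ values lay on both sides of the untreated ones. The difference was -0.040 (SE 0.061, adjusted p = 0.60), and the 95% interval of -0.19 to 0.11 leaves out changes as large as those of LFNG and FUT8. Its 2 probe sets above the limit gave -0.078 and -0.0026, and the sign of the gene's difference turned without the filter (0.0019) and without replicate 2 (0.012).

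**Figure D3:**
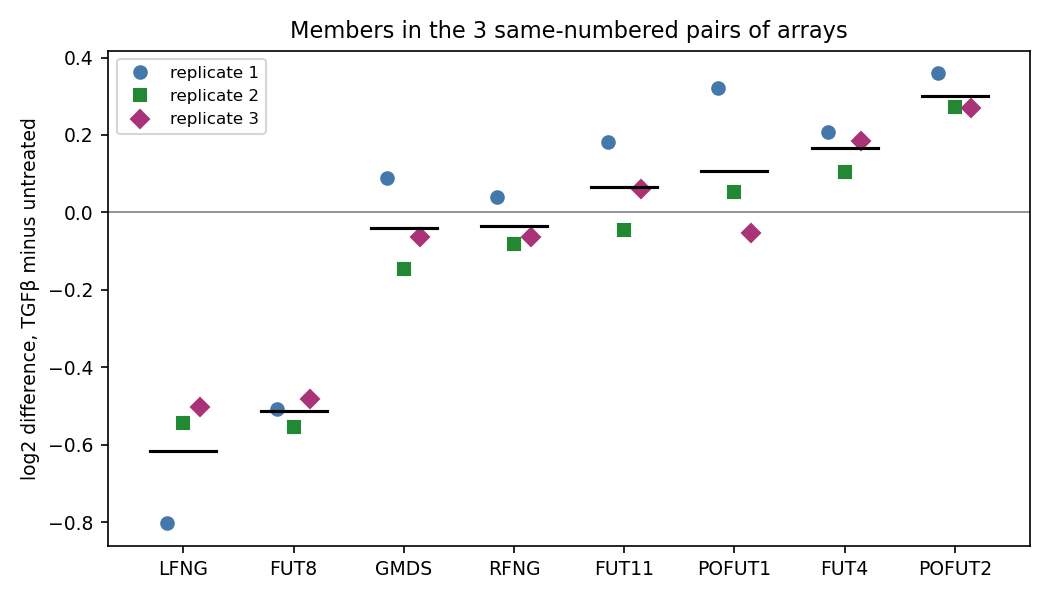
Log2 difference between same-numbered TGFβ and untreated arrays for the 8 tested members, ordered by mean difference, with replicates 1, 2 and 3 as circles, squares and diamonds and the mean as a black line. All 3 differences are negative for LFNG and FUT8 and positive for POFUT2 and FUT4, while those of POFUT1, RFNG, FUT11 and GMDS lie on both sides of 0.

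Around the members, the genes that supply GDP-fucose moved in both directions. Of 10 on the list, 8 had a probe set of their own and all 8 were tested. After TGFβ 5 rose, 2 fell and 1 did not pass (PMM1, -0.0037), with a median of 0.25, so 7 of 8 were called against 58.7% of all genes tested. The call of SLC35C2 was lost in 3 alternatives, among them the fit without the filter (0.10, adjusted p = 0.26). FCSK, the fucokinase that starts the salvage of free fucose, measured 7.40, 7.44 and 7.27 on the untreated and 6.86, 6.84 and 6.88 on the TGFβ arrays. It fell by 0.51 (SE 0.059, adjusted p = 0.00073) with no overlap. SLC35C1, which carries GDP-fucose into the Golgi, measured 6.48, 6.57 and 6.74 against 7.09, 7.09 and 6.997 and rose by 0.46 (SE 0.076, adjusted p = 0.0030). The untreated mean of SLC35C1, among the 5 that rose, was below the limit and its TGFβ mean above it, a selection that favours a rise. With the limit set on the mean over all 6 arrays, its log2 fold change was 0.34 and the call was kept. MPI, which makes mannose phosphate from a sugar phosphate of glycolysis, rose by 0.43 (SE 0.058, adjusted p = 0.0014). The 2 probe sets of MPI gave 0.25 and 0.60, and the 2 of SLC35C1 gave 0.34 and 0.58.

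A further 2 supply genes were singled out after their values were seen, because they act beside GMDS and FCSK. GFUS, which completes GDP-fucose after GMDS, measured 9.25, 9.20 and 9.23 on the untreated and 9.63, 9.55 and 9.62 on the TGFβ arrays, and rose by 0.37 (SE 0.048, adjusted p = 0.0011). FPGT, which completes the salvage route after FCSK, fell by 0.38 (SE 0.054, adjusted p = 0.0017). So the 2 salvage enzymes were lower, and of the 2 enzymes from GDP-mannose to GDP-fucose GFUS was higher while GMDS did not pass the test.

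Among the 8 other fucosyltransferases, FUT1, FUT2, FUT3, FUT5, FUT7, FUT9 and FUT10 (RefSeq symbol POFUT3) were below the limit in both groups. FUT6 was the only one tested, with a difference of 0.079 (adjusted p = 0.42). The 2 enzymes that remove fucose moved apart. FUCA1, the lysosomal fucosidase, fell by 0.35 (SE 0.056, adjusted p = 0.0026), a call lost without the filter (log2 fold change -0.14, adjusted p = 0.11). FUCA2, a secreted fucosidase, rose by 0.26 (SE 0.050, adjusted p = 0.0057), a call lost without replicate 2 (adjusted p = 0.051).

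The other glycosyltransferases of EGF-like and thrombospondin repeats were 9, all tested, of which 4 rose, 1 fell and 4 did not pass, with a median of 0.19. Of all genes tested, 27.7% were called higher and 31.0% lower. The call of XXYLT1 (0.19, adjusted p = 0.024) was lost in 4 of 13 alternatives, and that of POGLUT1 (0.21, adjusted p = 0.021) in 2 of 13. GXYLT2, which adds xylose to O-glucose on EGF-like repeats, measured 6.23, 6.28 and 6.19 on the untreated and 7.72, 7.71 and 7.71 on the TGFβ arrays. It rose by 1.48 (SE 0.049, adjusted p = 9.1e-06), and its 2 probe sets gave 1.46 and 1.51. The untreated mean of GXYLT2 (6.23) was below the limit and its TGFβ mean (7.71) above it, a selection that favours a rise. In the limma fit without the filter its log2 fold change was also 1.48 (adjusted p = 1.1e-05). GXYLT1, which has the same activity, measured 8.21, 8.18 and 8.10 against 7.44, 7.33 and 7.41 and fell by 0.77 (SE 0.054, adjusted p = 0.00011). These paralogs thus moved in opposite directions, each without overlap. B4GALT1, a galactosyltransferase that can act on the disaccharide made by Fringe, rose by 0.45 (SE 0.056, adjusted p = 0.00094) on the 1 of its 6 probe sets above the limit.

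The Notch receptors and ligands, which carry the sugars added by POFUT1 and Fringe, and the Notch target genes were measured in part. Of the 4 receptors, 2 were above the limit. NOTCH1 rose by 0.36 (SE 0.063, adjusted p = 0.0038), and NOTCH2 did not pass the test (0.053, adjusted p = 0.54). All 5 ligands were tested, with 1 higher, 2 lower and 2 not past the test, and a median of -0.028. That median is the value of DLL3, whose 4 probe sets ran from -0.52 to 0.21. DLL3 was called lower without probe sets whose names end in _x_at (-0.52, adjusted p = 0.0014) and higher with a signal limit of 200 (0.21, adjusted p = 0.0086), so its direction is not settled here. JAG1 measured 7.87, 7.92 and 8.06 on the untreated and 10.5, 10.3 and 10.5 on the TGFβ arrays, a rise of 2.45 (SE 0.064, adjusted p = 5.1e-06). DLL1 fell by 1.14 (SE 0.12, adjusted p = 0.00045) and JAG2 by 0.87 (SE 0.055, adjusted p = 7.6e-05). The TGFβ mean of DLL1 (5.60) was below the limit. Its untreated arrays brought DLL1 into the test, a selection that favours a fall. Of 6 target genes 5 were tested and all 5 rose, with a median of 1.28, against 27.7% of all genes called higher. The untreated means of HEY1 and HEYL (6.20 and 6.43) were below the limit. They entered the test through their TGFβ arrays, a selection that favours a rise. The call of HEYL (0.22, adjusted p = 0.020) was lost in 4 of 11 alternatives, among them the fit without the filter (0.10, adjusted p = 0.36). The largest of these changes were 2.82 for HEY1, 1.62 for HES4 and 1.28 for HES1, which encode transcriptional repressors.

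Proteins with thrombospondin repeats, the kind of substrate that POFUT2 modifies, were mostly below the limit. Of 18 genes, 4 were tested, and 3 of these rose, against 27.7% of all genes called higher. THBS1, among these 3, had an untreated mean of 5.62, below the limit, so its TGFβ arrays brought it into the test. THBS1 measured 5.54, 5.55 and 5.78 on the untreated and 8.12, 7.93 and 7.84 on the TGFβ arrays, a rise of 2.34 (SE 0.10, adjusted p = 1.9e-05). CCN2, a matricellular growth factor, rose by 1.505 and its relative CCN1 by 0.54. Of 9 receptors known to carry core fucose from FUT8, 6 rose, 2 fell and 1 did not pass, with a median of 0.36. The shares of all genes called higher and lower were 27.7% and 31.0%. E-cadherin (CDH1) fell by 2.02 (SE 0.11, adjusted p = 5e-05), and the integrin chains ITGA3 and ITGA5 rose by 1.07 (SE 0.083) and 0.76 (SE 0.089). The TGFβ mean of CDH1 (5.56) was below the limit. Its untreated arrays brought CDH1 into the test, a selection that favours a fall. The arrays measure messages, so whether these proteins carried more or less fucose was not measured.

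**Figure D4:**
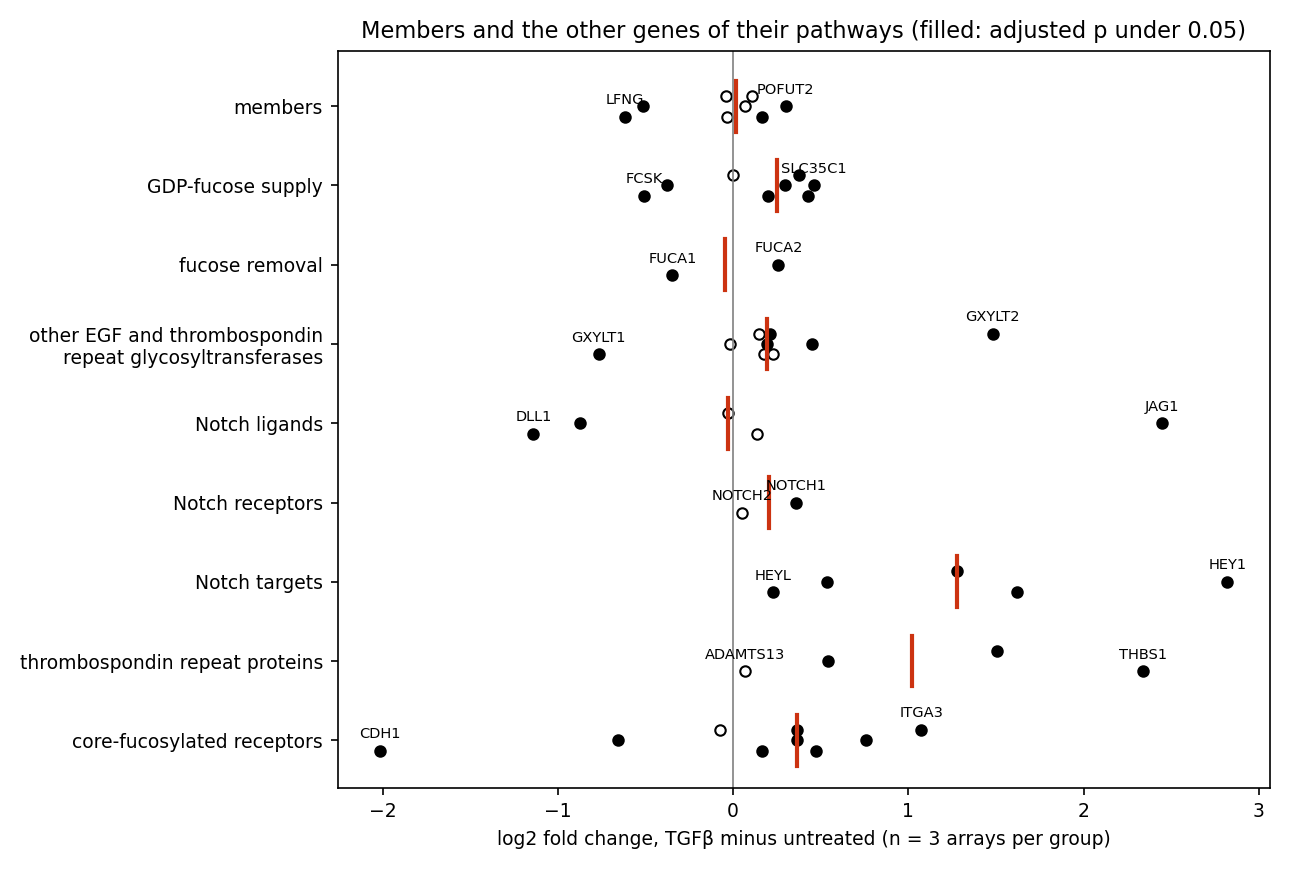
Log2 fold change, TGFβ minus untreated, of the tested members and of the tested genes in the pathway lists, with 1 point per gene (filled where the adjusted p was under 0.05), a red bar at each list's median and names at its extremes. The members spread from -0.62 to 0.30, a narrower range than the Notch ligands (-1.14 to 2.45) or targets (up to 2.82).

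Over these lists, which were chosen with earlier results known, 34 of 45 tested genes were called, against 58.7% of all genes tested. Of the 34 called genes, 27 kept the call in every limma alternative run for them, up to 13 per gene. The methods' paired test (log2 values, after adjustment) called 2414 of all 10115 genes. In it FCSK, SLC35C1, MPI, FPGT, FUCA1, FUCA2, B4GALT1, NOTCH1, DLL1, CCN1, ITGA3 and ITGA5 lost their calls (adjusted p from 0.0504 to 0.10). POGLUT1, XXYLT1, HEYL, MET, GMPPA, NRARP, EGFR and ITGB1 lost theirs too (adjusted p from 0.056 to 0.14). GFUS, GXYLT1, GXYLT2, JAG1, JAG2, HES1, HES4, HEY1, THBS1, CCN2 and CDH1 kept theirs (adjusted p from 0.021 to 0.043). So did TGFBR2, LRP1 and SLC35C2 (adjusted p from 0.034 to 0.049). Averaging in probe sets below the limit moved some values toward 0 and others away from it. Without the filter the log2 fold change was 1.67 for JAG1, -0.57 for DLL1, 0.84 for HES1, 0.20 for NOTCH1, 1.11 for THBS1 and -1.19 for CDH1, each still past the threshold, and 0.56 against 0.36 with the filter for the receptor MET. HEYL, LRP1, SLC35C2, FUCA1 and XXYLT1 lost their calls without it (adjusted p = 0.36, 0.31, 0.26, 0.11 and 0.053). DLL3, HEYL, SLC35C2, LRP1, XXYLT1, POGLUT1 and MET are named because of how their values or calls changed, after these were seen. GMPPA, NRARP, EGFR, ITGB1 and TGFBR2 are named only so that the paired test is given for every called gene of the lists.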

How the data were processed

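RNA of Panc-1 cells was measured on 6 arrays, 3 per group. The authors deposited 1 table of log2 values per probe set and array; the software and normalisation are not given in the sources used here. Probe sets were named from the platform annotation, and 41091 named exactly 1 gene. Probe sets with a mean signal below 100 in both groups were left out, leaving 19101 probe sets and 10115 genes, each gene being the mean of its remaining probe sets. Groups were compared with limma 3.58.1 in R 4.3.3 (two-sided, Benjamini-Hochberg adjustment over all genes or probe sets, called under 0.05), and the replicate number entered as a block, since the methods of the study pair the arrays, leaving 2 residual degrees of freedom. Deviations of same-numbered arrays correlated at -0.24, 0.24 and 0.11, and those of differently numbered arrays at -0.41 to 0.29, so the numbers showed no sign of pairing. Probe sets below the limit were tested in a fit without the filter. The workflow was tested on simulated data. Tables, motif searches and plots used Python 3.11.15, pandas 2.3.3 and matplotlib 3.10.9, and promoter windows came from a RefSeq table (GRCh38.p14). The number of arrays limits the precision, and levels are not compared between probe sets. The members, lists and tests were chosen with earlier results of these data known. All members are named, and from each list the called genes with the 3 largest changes. Alternatives covered the filter, normalisation, variance model, probe set choice, replicate block, each replicate left out and the methods' t-test.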

Additional observations from a re-analysis of the deposited data

How the results depend on the processing

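Of the member genes, FUT8 kept its call in every limma alternative run, POFUT2 lost it without the filter, and LFNG kept it in all of them. FUT4 lost its gene call in the 4 alternatives named above for the gene, and at a threshold of 0.01, where 3 genes were called. In the fit with no replicate block, 4 member genes and 5 member probe sets were called, as in the paired fit. With a signal limit of 200, 6 members could be tested, FUT4 not among them, and 3 were called. With 1 replicate left out, 3 to 4 genes and 4 to 5 probe sets were called. By the methods' paired test after adjustment, 2 genes and 0 probe sets were called on log2 values and 1 gene and 1 probe set on linear values; LFNG was past neither (adjusted p = 0.067 and 0.053). Unadjusted, 4 genes and 5 probe sets passed on either scale. POFUT1 was called without the filter, and GMDS probe set 204875_s_at without replicate 1 (-0.19). Signs turned only in differences that had not passed. With 1 replicate left out these ran from -0.00034 to 0.19 for POFUT1 and its probe set 212349_at, from -0.10 to 0.012 for GMDS, from -0.033 to 0.049 for its probe set 214106_s_at and from -0.018 to 0.15 for FUT11 probe set 238551_at. GMDS was 0.0019 without the filter, and 214106_s_at was 0.035 after quantile normalisation. With 2 residual degrees of freedom, changes of the size of that in FUT4 were near what these arrays could show.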

Other observations

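Of the 8 tested member genes, 6 had their highest same-numbered difference in replicate 1 and 2 in replicate 3. Over all 10115 genes, the median difference between same-numbered arrays was 0.025 in replicate 1, -0.035 in replicate 2 and -0.032 in replicate 3 (log2).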
